A study of Drosophila melanogaster with 4 samples.

Results

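Genes of the cytosolic ribosome and of the translation factors that load, move and release it were examined in heads of TEA-fed and control flies. Members were all array probes whose platform gene symbol begins with RpL, RpS, eIF, eEF or eRF, the names of large and small subunit ribosomal proteins and of eukaryotic initiation, elongation and release factors; mitochondrial ribosomal proteins were not included. This gave 54 of the 6793 genes named by a probe with 1 symbol, 23 ribosomal protein genes on 36 probes and 31 translation factor genes on 33, or 69 of 13824 probes in all. The samples were heads of unmated Oregon R males of Drosophila melanogaster, a wild-type strain. TEA flies, aged 3-4 days when treatment began, ate normal medium with 16 mg/ml tetraethylammonium chloride, a blocker of potassium channels, for 7 days. Control flies of the same strain, sex and age ate normal medium for 7 days, and both kinds were kept at 30 per vial. Each of 4 biological replicates set 1 TEA pool of heads against 1 control pool on a 2-colour cDNA array, with TEA in Cy5 in replicates 1 and 2 and in Cy3 in replicates 3 and 4.

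The ribosome reads messenger RNA and joins amino acids, and its proteins are made in matched amounts from many separate genes. Initiation factors bring the small subunit to the capped end of a message, elongation factors deliver aminoacyl-tRNA and keep the chain growing, and release factors free the finished protein. In neurons, signalling through the initiation factors eIF2B and eIF4 adjusts protein synthesis to activity and stress. A pool of heads holds neurons, eye, fat body and muscle together, so fewer cells of a type and less RNA per cell cannot be told apart.

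All values are log2 ratios of TEA over control, where 0 means equal signal, and 2 neighbouring spots were averaged to a probe. The ratio's direction is not stated in the sources used here. It was read as Cy5 over Cy3. The design text writes the scanner wavelengths as 635/532, the red channel of Cy5 first, in the name of its regression R2 filter. That name does not state the direction of the ratio. In the opposite reading every sign below would turn. The arrays held values for 5445 to 6252 of 27648 spots, the rest having been filtered by the authors, and the number of arrays limits the precision. With replicates 3 and 4 turned, the medians of all tested genes were -0.10, -0.09, 0.26 and 0.06 in replicates 1 to 4, so the arrays did not share a common zero. Spearman correlations of the deposited values, before turning, were 0.46 for replicates 1 and 2 and 0.34 for replicates 3 and 4. Across orientations, where a shared TEA effect would give negative values, they were 0.00 (1 and 3), 0.17 (1 and 4), -0.24 (2 and 3) and 0.01 (2 and 4). The reason was not tested. Of the head markers with a named probe, 4 of 8 photoreceptor genes, 1 of 2 neuronal, 1 of 4 glial and 4 of 5 fat body genes had values on at least 3 arrays, as did 2 of 4 muscle genes. The neuronal marker nSyb had no tested probe, and 0 of 4 testis and male gland genes had one.

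Translation genes passed the authors' spot filter more often than the table as a whole. A value on at least 3 of the 4 arrays, the condition for testing, was reached by 35 of the 69 member probes (50.7%). The share was 22.8% of all 13824 probes and 19.1% of the 7558 probes with 1 gene symbol. The 35 comprised 19 ribosomal protein probes for 17 genes and 16 factor probes for 15 genes; 26 had 4 values and 9 had 3. The other 34 member probes had no value on any array. Without a tested probe were 6 ribosomal protein genes, RpLP0-like, RpLP1, RpS10a, RpS19b, RpS20 and RpS5b, and 16 factor genes. Among these 16 were the release factor eRF3, the cap-binding paralogue eIF4E3, the eIF2 subunit eIF2beta and the eIF3 core subunits eIF3b, eIF3c and eIF3i. RpL32, the message known as rp49 that is widely used as a loading reference in fly work, had 10 probes, of which 2 were tested.

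Whether any of these messages differed between TEA and control heads was tested first, over the whole table. No member passed. The limma test with Benjamini-Hochberg adjustment called 0 of 35 member probes, with 2 at an unadjusted p under 0.05, where it called 20 of 3150 tested probes (0.635%), with 283 at an unadjusted p under 0.05. With the probes of each gene averaged, limma gave an unadjusted p under 0.05 to 2 of 32 member genes and 123 of 1379 genes (8.92%). After adjustment 0 of 32 member genes passed, against 12 of 1379 genes (0.87%). That count of all genes was 33 without replicate 1, 16 without replicate 2, 36 without replicate 3 and 2 without replicate 4. These fits took genes with at least 2 values, 1397 without replicate 1 or 2 and 1379 without replicate 3 or 4. On single arrays, RpL39 was the only ribosomal protein gene above 0 on every array that measured it and none was below 0 throughout. RpL39 had no value in replicate 4, where 1 of 13 measured ribosomal protein genes was above 0. Among factors eIF3g1, eIF3k and eIF4A were above 0 and eIF4G2 below 0 on every array that measured them. eIF3k had no value in replicate 4. eIF4G2 had none in replicate 3, where 12 of 13 measured factor genes were above 0. Over all tested genes 9.57% were above 0 and 8.41% below 0 on every array. Member means ran from -0.70 for eIF4G2 to 0.42 for RpL39. Of the 17 ribosomal protein genes 10 had a mean above 0, with a median of 0.02, and of the 15 factor genes 11 had one, with a median of 0.11. Of all 1379 tested genes 765 had a mean above 0, and their median was also 0.02. The factor median was 0.04 without replicate 3, and the ribosomal protein median was -0.04 without replicate 3, 0.09 without replicate 2 and 0.12 without replicate 4.

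**Figure D1:**
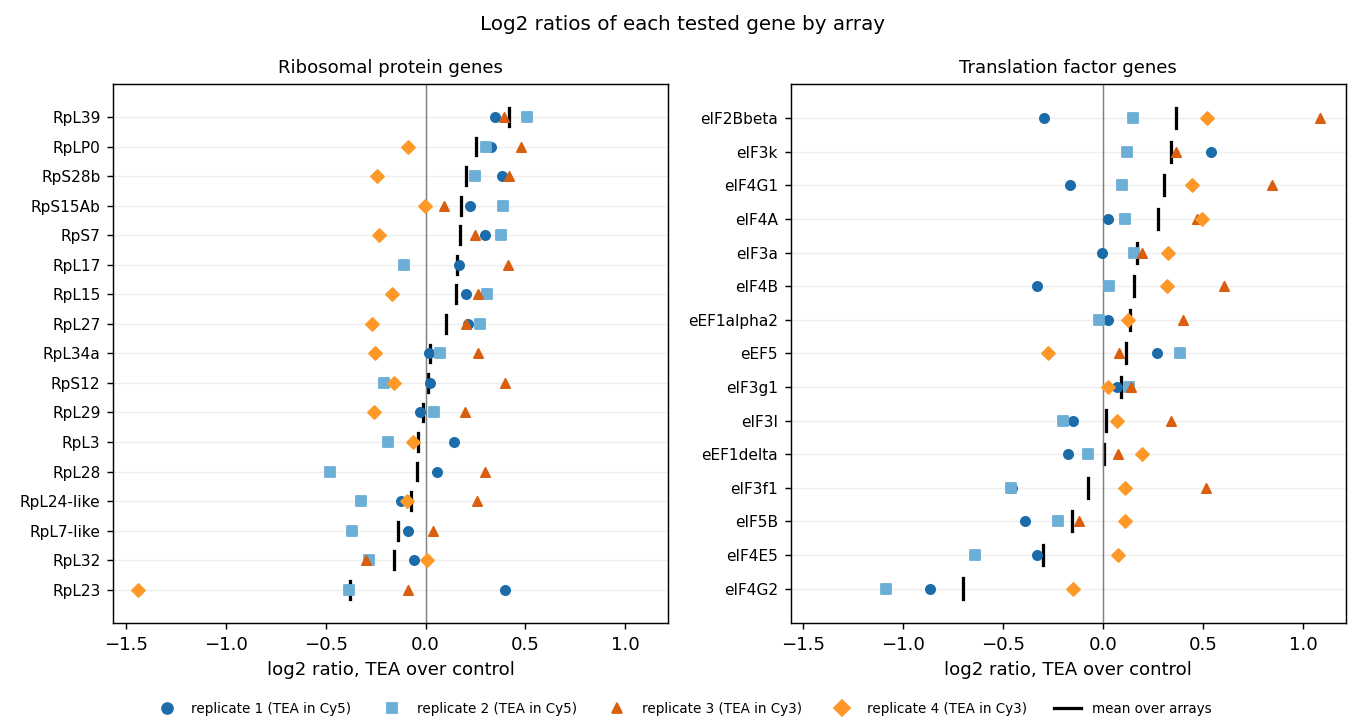
Log2 ratio of TEA over control for each tested ribosomal protein gene (left) and translation factor gene (right), 1 marker per array and a black bar for the mean over arrays. RpL39, which has no value in replicate 4, is the only ribosomal protein gene above 0 on every array that measured it. Most replicate 4 markers of ribosomal protein genes lie below 0.

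The ribosomal protein with the smallest p was RpL39, a short basic protein of the large subunit that lines the exit tunnel of the nascent chain. RpL39 stood at 0.35, 0.51 and 0.39 in replicates 1, 2 and 3 and had no value in replicate 4. Its 3 values lay above 0 and close together, with a mean of 0.42 ± 0.16 (SE, n = 3), a 1.33-fold ratio, and a limma adjusted p of 0.392 at the gene level. RpLP0, the protein at the base of the ribosomal stalk, stood at 0.33, 0.30, 0.48 and -0.09 in replicates 1 to 4. RpS28b, a small subunit protein, stood at 0.38, 0.25, 0.42 and -0.24. Both were above 0 on the first 3 arrays and below 0 on replicate 4, with means of 0.25 ± 0.14 and 0.20 ± 0.15 (SE, n = 4 each). RpS15Ab, also of the small subunit, had 0.22, 0.39, 0.09 and -0.00 in replicates 1 to 4 (mean 0.18 ± 0.14, SE, n = 4), and its 2 probes gave means of 0.18 and 0.17. RpS15Ab, RpS28b and RpL34a have close paralogues in the genome, to which a cDNA probe may also hybridise.

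RpL23 had the lowest mean of the ribosomal proteins and the widest spread. This large subunit protein, which faces the small subunit, stood at 0.40, -0.38, -0.09 and -1.44 in replicates 1 to 4. Replicate 4 held the lowest of these values, and its duplicate spots there differed by only 0.074. The mean was -0.38 ± 0.23 (SE, n = 4; limma adjusted p = 0.761). RpL32 stood at -0.06, -0.28, -0.30 and 0.01, with a mean of -0.16 ± 0.14 (SE, n = 4), and its 2 tested probes had means of -0.11 and -0.28. RpL7-like and RpL24-like, whose yeast relatives act in assembly of the large subunit, had means of -0.14 ± 0.17 (SE, n = 3) and -0.07 ± 0.14 (SE, n = 4). The remaining large subunit genes were near 0: RpL17 averaged 0.16 ± 0.17, RpL28 -0.04 ± 0.18 and RpL3 -0.04 ± 0.16 (SE, n = 3 each), and RpL15 0.15 ± 0.14, RpL27 0.10 ± 0.14, RpL34a 0.02 ± 0.14 and RpL29 -0.01 ± 0.14 (SE, n = 4 each). Of the small subunit, RpS7 averaged 0.17 ± 0.15 and RpS12 0.01 ± 0.15 (SE, n = 4 each). All 4 tested small subunit genes had means above 0, with a median of 0.17, and 6 of 13 large subunit genes did, with a median of -0.01.

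Several ribosomal protein genes had the same signs over the arrays. Of the 12 with values on all 4 arrays, 7 were above 0 in replicates 1 to 3 and below 0 in replicate 4, against 1 of 12 factor genes and 8.94% of the 995 tested genes with 4 values. The pattern was picked out after the values were seen. The 7 were RpL15, RpL27, RpL34a, RpLP0, RpS15Ab, RpS28b and RpS7. RpS15Ab is among them by a value of -0.00075, and neither of its 2 probes had the pattern alone. Of these probes, 1 was above 0 on all 4 arrays, at 0.0065 in replicate 4. The other was below 0 in replicates 3 and 4, at -0.039 and -0.008. In RpS7 the values were 0.30, 0.38, 0.25 and -0.24. RpL27 had 0.21, 0.27, 0.20 and -0.27, and RpL15 had 0.20, 0.31, 0.26 and -0.17. In each of these 3 genes the first 3 arrays lay close together and replicate 4 stood apart. The factor with the same signs was eEF5, formerly called eIF5A, an elongation factor that carries the modified residue hypusine, at 0.27, 0.38, 0.08 and -0.28.

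Among the initiation factors the lowest mean belonged to eIF4G2, a paralogue of the eIF4G scaffold that is required in the male germ line. eIF4G2 stood at -0.87 and -1.09 in replicates 1 and 2 and at -0.15 in replicate 4, with no value in replicate 3. All 3 values lay below 0, and the pair with TEA in Cy5 lay furthest from it. Its mean was -0.70 ± 0.20 (SE, n = 3), a ratio of 0.615, with a limma adjusted p of 0.166 over genes and 0.472 over probes. It passed at the gene level with a dye orientation term in the fit (-0.56, limma adjusted p = 0.00918), where 6.96% of genes passed. The standard error in that fit, 0.16, did not depend on the gene's own spread, so the call rests on the size of the estimate. eIF4G2 also passed with replicate 3 left out (-0.70, limma adjusted p = 0.00977), where 2.61% of genes did. Since eIF4G2 has no value in replicate 3, its own values were the same there. The cap-binding paralogue eIF4E5 stood at -0.33, -0.64 and 0.08 in replicates 1, 2 and 4, with a mean of -0.30 ± 0.18 (SE, n = 3).

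The remaining 3 genes of the eIF4 group had means above 0. eIF4G1, the scaffold that joins the cap-binding protein to the ribosome-bound eIF3, stood at -0.17, 0.09, 0.84 and 0.44 in replicates 1 to 4 (mean 0.30 ± 0.17, SE, n = 4). Its 2 probes had means of 0.54 and 0.06; the first of them read 1.34 in replicate 3, where the second read 0.35. eIF4A, the RNA helicase that unwinds leader sequences, stood at 0.03, 0.11, 0.47 and 0.49 (mean 0.27 ± 0.14, SE, n = 4), above 0 on every array. eIF4B, which stimulates that helicase, stood at -0.33, 0.03, 0.60 and 0.32 (mean 0.16 ± 0.16, SE, n = 4). In all 5 tested eIF4 genes, eIF4G2 and eIF4E5 included, every value with TEA in Cy5 lay below every value with TEA in Cy3. The same held in 762 of all 1379 tested genes (55.3%). With TEA in Cy3, eIF4G2 and eIF4E5 were measured in replicate 4 alone.

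The guanine nucleotide exchange factor eIF2B, which recharges eIF2 and is the target of the integrated stress response, was represented by its beta subunit. eIF2Bbeta stood at -0.30, 0.15, 1.09 and 0.52 in replicates 1 to 4, with a mean of 0.37 ± 0.19 (SE, n = 4; limma adjusted p = 0.675). Of the eIF3 complex, which holds the small subunit during scanning, 5 subunits were tested. eIF3k stood at 0.54, 0.12 and 0.37 in replicates 1 to 3, with a mean of 0.34 ± 0.17 (SE, n = 3), although its duplicate spots differed by 0.672 in replicate 1. eIF3f1 stood at -0.46, -0.46, 0.52 and 0.11 and so changed sign with the dye orientation, with a mean of -0.07 ± 0.17 (SE, n = 4). Orientation means changed sign in that direction in 7 of 15 factor genes and 743 of all 1379 tested genes. eIF3a averaged 0.17 ± 0.14, eIF3g1 0.09 ± 0.13 and eIF3l 0.02 ± 0.14 (SE, n = 4 each). eIF5B, the GTPase that joins the subunits, averaged -0.16 ± 0.14 (SE, n = 4). The elongation factors eEF1alpha2, which carries aminoacyl-tRNA, and eEF1delta, which exchanges its nucleotide, averaged 0.13 ± 0.14 and 0.00 ± 0.14, and eEF5 averaged 0.11 ± 0.15 (SE, n = 4 each). A probe for eEF1alpha2 may also hybridise to its close paralogue.

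Ribosomal proteins and factors were next compared array by array. In replicate 1 the ribosomal protein genes had a median of 0.17, the factors -0.17 and all tested genes -0.10. In replicate 2 the medians were 0.04, 0.03 and -0.09 in the same order, and in replicate 3 they were 0.26, 0.37 and 0.26. In replicate 4 they were -0.17, 0.12 and 0.06. The ribosomal protein median thus lay above that of all genes in replicates 1 and 2, level with it in replicate 3 and below it in replicate 4. Counted gene by gene, 16 of 17 ribosomal protein genes exceeded the median of all genes in replicate 1, 9 of 17 in replicate 2, 6 of 16 in replicate 3 and 0 of 13 in replicate 4. The corresponding counts for factors were 6 of 15, 10 of 15, 8 of 13 and 11 of 14. The difference of the 2 class medians, ribosomal proteins minus factors, was 0.34, 0.01, -0.11 and -0.29 in replicates 1 to 4.

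**Figure D2:**
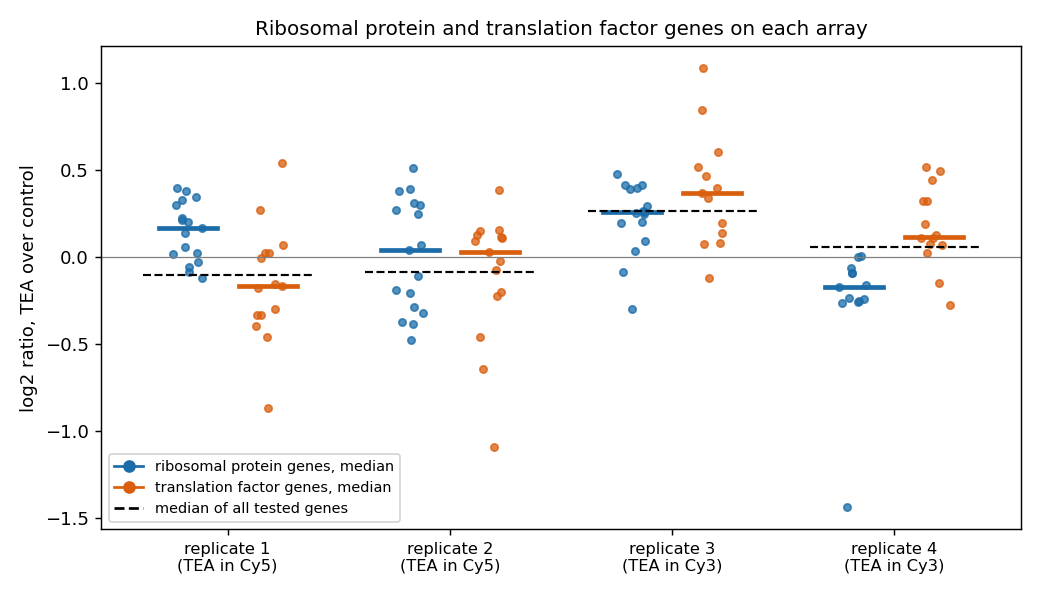
Log2 ratio of TEA over control on each array for ribosomal protein genes (blue points) and translation factor genes (orange points), with class medians as solid bars and the median of all tested genes as a dashed line. In replicate 1 the ribosomal protein median of 0.17 is above the dashed line, and in replicate 4 the median of -0.17 and all 13 measured genes are below it.

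By dye orientation, the median over ribosomal protein genes was 0.03 with TEA in Cy5 and 0.05 with TEA in Cy3, and over factor genes -0.07 with TEA in Cy5 and 0.26 with TEA in Cy3. All tested genes had -0.11 with TEA in Cy5 and 0.16 with TEA in Cy3. The median of the per-gene difference, TEA in Cy5 minus TEA in Cy3, was 0.04 for ribosomal proteins, -0.38 for factors and -0.26 for all tested genes. Some of these genes lacked a value in replicate 3 or 4. Over the 12 ribosomal protein genes with 4 values the medians were 0.14 with TEA in Cy5 and 0.03 with TEA in Cy3. Their median per-gene difference was 0.16. The 12 factor genes with 4 values had -0.05, 0.26 and -0.34 in the same order. All 995 tested genes with 4 values had -0.095, 0.17 and -0.26. Every value with TEA in Cy5 lay above every value with TEA in Cy3 in 3 of 17 ribosomal protein genes and 1 of 15 factor genes, against 10.4% of all tested genes. The reverse held in 4 of 17 ribosomal protein genes and 12 of 15 factor genes, against 55.3% of all tested genes. Of those 4, RpL17, RpL28 and RpL7-like had no value in replicate 4. Of the 12, eIF4G2 and eIF4E5 had none in replicate 3. Before centring, the factors therefore split by dye in the direction of most genes of the table, in a larger share (80% against 55.3%). The ribosomal proteins split in that direction in a smaller share (23.5%). These counts compare a list with all genes and carry no test.

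**Figure D3:**
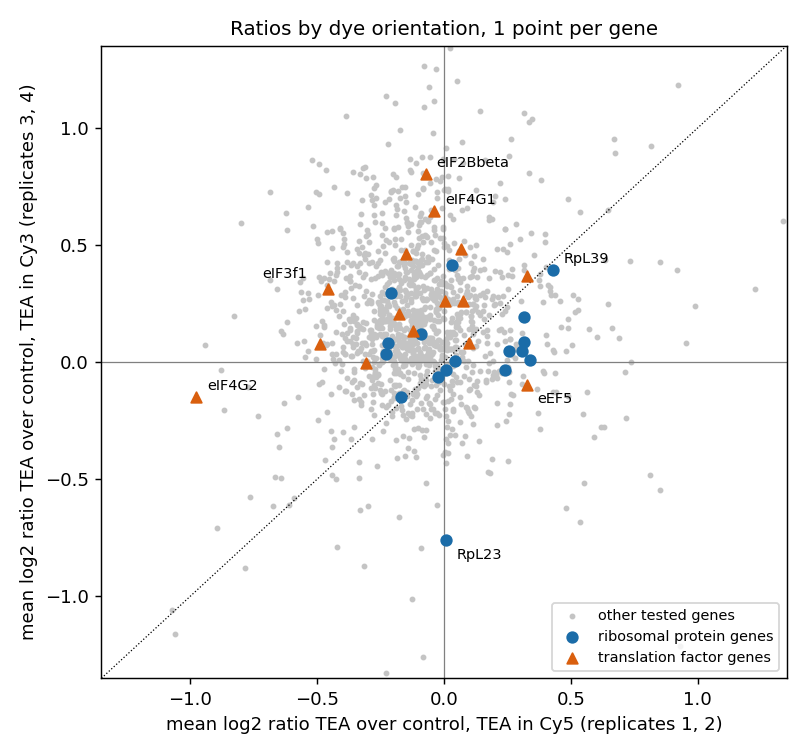
Mean log2 ratio of TEA over control on the arrays with TEA in Cy5 (horizontal) against those with TEA in Cy3 (vertical), 1 point per gene, for ribosomal proteins (blue circles), factors (orange triangles) and other tested genes (grey; 5 lie outside the axes). On the dotted line both orientations give the same ratio; 11 of 17 ribosomal protein genes, 2 of 15 factor genes and 295 of all 1379 tested genes (21.4%) lie below it.

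Centring each array on the median of all tested genes left the difference between the classes on an array as it was, but moved the counts of genes that split by dye. Every centred value with TEA in Cy5 lay above every centred value with TEA in Cy3 in 11 of 17 ribosomal protein genes and 3 of 15 factor genes, against 30.8% of all tested genes. In the opposite direction stood 0 of 17 ribosomal protein genes and 8 of 15 factor genes, against 30.7% of all tested genes. Of the 11 ribosomal protein genes, RpL39 had no value in replicate 4 and RpL3 none in replicate 3. Of the 3 factor genes, eIF3k had none in replicate 4. Of the 8 factor genes, eIF4G2 and eIF4E5 had none in replicate 3. Relative to the median of all genes, the ribosomal protein medians were 0.27, 0.13, -0.01 and -0.23 in replicates 1 to 4, and the factor medians -0.07, 0.12, 0.10 and 0.06. Within either pair of arrays alone, dye and TEA cannot be told apart.

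Whether the ratio of single members differed between orientations was tested with a dye orientation term over the whole table. limma called 0 of 35 member probes, with 4 at an unadjusted p under 0.05, and 0 of 3150 probes in all (0%), with 506 at an unadjusted p under 0.05. With gene means in place of probes, 3 of 32 member genes passed, against 176 of 1379 genes (12.8%). That fit gave every gene with 4 values the same standard error, 0.26, so its calls rest on the size of the difference alone. The 3 were eIF2Bbeta, at -0.07 with TEA in Cy5 and 0.80 with TEA in Cy3 (limma adjusted p = 0.0128 for the difference), eIF3f1, at -0.46 with TEA in Cy5 and 0.31 with TEA in Cy3 (limma adjusted p = 0.0295), and RpL23, at 0.01 with TEA in Cy5 and -0.76 with TEA in Cy3 (limma adjusted p = 0.0295). The share of members was below that of all genes. The ribosomal proteins next in order were RpL28, with 0.06, -0.48 and 0.30 in replicates 1 to 3, and RpS7, at 0.34 with TEA in Cy5 and 0.01 with TEA in Cy3. The next factor was eIF4G1, at -0.04 with TEA in Cy5 and 0.64 with TEA in Cy3.

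Gene means from 1 orientation alone gave calls that the 4 arrays together did not. With TEA in Cy5 alone, limma over 1374 genes called 4 of 32 members, eIF4G2 (-0.98, adjusted p = 1.25e-08), eIF4E5 (-0.49, adjusted p = 0.0156), eIF3f1 (-0.46, adjusted p = 0.0253) and RpL39 (0.43, adjusted p = 0.0401). With TEA in Cy3 alone it called 3 of 24, eIF2Bbeta (0.80, adjusted p = 0.00782), RpL23 (-0.76, adjusted p = 0.0121) and eIF4G1 (0.64, adjusted p = 0.0398). Of all genes, 12% passed on the Cy5 pair of arrays and 9.94% on the Cy3 pair, so the members' counts lay near the background. Each of these fits gave its called members 1 common standard error, 0.15 with TEA in Cy5 and 0.22 with TEA in Cy3, so the calls rest on the size of the mean over 2 arrays. eIF4G2, eIF4E5 and RpL39 have 1 value with TEA in Cy3 and were not tested there. At the probe level limma called 0 of 35 members with TEA in Cy5 alone, against 0.0963% of all probes, and 0 of 26 with TEA in Cy3 alone, against 0.0395%. At an unadjusted p under 0.05 were 6 of 35 members with TEA in Cy5 alone, against 637 of 3116 probes (20.4%). With TEA in Cy3 alone there were 2 of 26, against 319 of 2529 (12.6%).

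Ribosomal protein probes in replicates 1 and 2 also differed by their position in the table. Of the 9 tested ribosomal protein probes at table positions up to 5000, 1 was above 0 in replicate 2, and their values ran from -0.48 to 0.04. Of the 10 at later positions 9 were above 0, from 0.07 to 0.51, the exception being RpL23 at -0.38. Replicate 2 values of all tested probes also moved with table position, with medians of -0.22, -0.06, 0.01 and -0.04 over 4 successive equal stretches of the table. Their medians were -0.17 up to position 5000 and -0.02 after it. In replicate 1, 4 of 9 ribosomal protein probes up to position 5000 and 10 of 10 after it were above 0, with medians of -0.03 and 0.29. All tested probes differed the other way in replicate 1, with medians of -0.04 up to position 5000 and -0.14 after it. Factor probes in replicate 2 had medians of -0.07 and 0.03 over the same positions. In replicate 1 the factor probes differed in the direction of the ribosomal proteins, with medians of -0.17 and 0.03. There 0 of 7 factor probes up to position 5000 and 5 of 9 after it were above 0. Whether table position follows the print layout of the slide is not given in the sources used here, and the boundary was set after the values were seen. The part of position in the ribosomal protein values was not tested.

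Duplicate spots set a scale for these differences within an array. The median absolute difference between the 2 spots of a tested member probe was 0.10, 0.09, 0.07 and 0.08 in replicates 1 to 4, against 0.11, 0.11, 0.14 and 0.14 over all tested probes. Member means over arrays had standard deviations between 0.05 for eIF3g1 and 0.78 for RpL23.

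Other genes of protein synthesis were collected by symbol. Of 16 further translation genes with a named probe 6 were tested, 0 passed, and 5 had a mean above 0, with a median of 0.23. Tctp, a growth-related protein long known for translational control, stood at 0.25, 0.14, 0.92 and 0.45 in replicates 1 to 4 (mean 0.44 ± 0.16, SE, n = 4). The RNA helicase bel stood at 0.11, 0.42, 1.75 and 0.16 (mean 0.61 ± 0.23, SE, n = 4). For both genes the highest value was in replicate 3. Of 24 ribosome assembly and ribosomal RNA genes 3 were tested, 0 passed and all 3 had a mean below 0, Ns2 at -0.21 ± 0.18 (SE, n = 3) and pit at -0.04 ± 0.16 (SE, n = 3) having the smallest p. None of 11 aminoacyl-tRNA synthetase genes had a tested probe.

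Mitochondrial ribosomal proteins, encoded by separate nuclear genes and used only in the organelle, offered a comparison. Of 48 such genes 10 were tested, and 0 passed. Their array medians were -0.09, -0.08, 0.13 and 0.15 in replicates 1 to 4. Relative to all tested genes they lay at 0.01, 0.01, -0.14 and 0.09, where the cytosolic ribosomal proteins lay at 0.27, 0.13, -0.01 and -0.23. The smallest p in the TEA test belonged to mRpS9 (-0.19 ± 0.13, SE, n = 4) and mRpL18 (0.24 ± 0.21, SE, n = 4). Relative to all genes, the 4 tested photoreceptor markers had medians of 0.09, 0.01, 0.03 and 0.20 in replicates 1 to 4. The 2 muscle markers had medians of -0.13, 0.04, 0.14 and 0.10. The glial marker Gs2 lay at 0.34, 0.65, 0.46 and 0.25, and the neuronal marker Sh at -0.21, -0.07, 0.25 and 0.21. The median of the 4 measured fat body markers, relative to all genes, was 0.75, 0.70, -0.07 and -0.01 in replicates 1 to 4. All 4 fat body markers exceeded the median of all genes in replicates 1 and 2, 1 of 3 did in replicate 3 and 2 of 4 in replicate 4. Of these 4, apolpp, a lipid carrier precursor, passed the gene-level test (0.78 ± 0.15, SE, n = 4; limma adjusted p = 0.0223), and the storage protein Lsp2 averaged -0.00 ± 0.14 (SE, n = 4). FASN1 averaged 0.45 ± 0.14 (SE, n = 4) and bgm 0.33 ± 0.20 (SE, n = 3), and neither passed. The part of any of these cell types in the ribosomal protein values was not tested.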

How the data were processed

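The authors deposited log2 ratios for 4 arrays. Per the labels' design text, images were quantified in GenePix Pro 6.0 and ratios normalised in Acuity 4.0 without dim spots. Filters followed: saturation (under 3% of pixels), flags, regression R2 (0.6 or more) and SNR (3 or more). No raw intensities were used here. The highest deposited value, 16.61, occurs at 8 spots, which were set to missing.

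Replicates 3 and 4 were multiplied by -1 and duplicate spots averaged. Probes with at least 3 values were fitted with limma 3.58.1 in R 4.3.3 (lmFit, eBayes, two-sided, Benjamini-Hochberg over all features, threshold 0.05), with the intercept alone or with a dye orientation term. The TEA fits without 1 array or with 1 dye orientation alone took features with at least 2 values. Gene means average a gene's tested probes. Replicates are separate pools of heads. Errors are moderated standard errors at the gene level. Scripts were tested on simulated data. All 69 member probes had a gene identifier in the RefSeq table of the Release 6 assembly, and no symbol changed; no coordinates are printed, since the files name no build. Members, lists and tests were chosen with earlier results of these data known. All tested members are named. Values by array go to the 5 genes of each class with the smallest p for TEA and the 3 with the smallest p for dye, and to further genes chosen after their values were seen. Alternatives covered turning, centring, scaling, filters, spots, dye and each replicate.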

Additional observations from a re-analysis of the deposited data

Results flagged for a closer look

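RpL27 stood out in replicate 4 at -0.27, against 0.21, 0.27 and 0.20 in replicates 1 to 3, with a gap to the nearest array, as a share of the whole range, of 0.87. Of 27 sets of 4 values examined, 24 member genes and 3 class summaries, it was the only one past the critical value of Dixon's test, which chance passes in about 1 set in 20.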

How the results depend on the processing

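The absence of member calls at the probe level held under all 17 alternatives for TEA against control and under all 12 for the dye orientation difference, with each count by limma. The count of all called probes was less stable: 20 in the fit reported, 0 with replicates 3 and 4 not turned (353 at an unadjusted p under 0.05), with centred arrays (309), with a dye term (427) and with each spot on its own (497), 3 with TEA in Cy5 alone, 1 with TEA in Cy3 alone and 36 with duplicate spots within 1. Leaving out 1 array gave 0 to 13: 13 without replicate 1, 0 without replicate 2 (182) or 4 (331), and 1 without replicate 3. For the dye difference, all probes called were 23 with duplicate spots within 1 and 0 to 1 without 1 array. With gene means in place of probes, added after the data were seen, 176 genes were called, 3 of them members. All genes called for TEA numbered 12, with 0 when replicates 3 and 4 were not turned, 8 with centred arrays, 96 with a dye term, 4 with values on all 4 arrays and 2 to 36 without 1 array. Member genes called for TEA were 1 with a dye term (eIF4G2), 4 with TEA in Cy5 alone, 3 with TEA in Cy3 alone and 0 to 1 without 1 array, eIF4G2 passing without replicate 3, where it has no value. Its p there depends on the fit, as its values do not change. The median of ribosomal protein genes ran from -0.04 without replicate 3 to 0.12 without replicate 4, and was 0.10 without RpL24-like and RpL7-like; that of factor genes ran from 0.04 without replicate 3 to 0.11 without replicate 4. With replicates 3 and 4 not turned, the factor median was -0.19 and the difference of medians 0.21, in place of 0.11 and -0.09. The sign of single member means changed in 48 of 528 recomputed values, 13 of them with replicates 3 and 4 not turned. The dye fit could not be run on fewer than 3 values, and without 1 array it used probes with all 3. A mean-variance trend was not run, since no intensities were used. The difference of medians ran from -0.08 to 0.00 without 1 array, turning sign without replicate 2 or 4. Where no value above shows it, the cause was not tested. Signal over background is not given by the ratios.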
